A study of Mus musculus with 18 samples.

Results

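The genes examined here were the 9 genes Mapk3, Dusp4, Dusp5, Dusp6, Spry2, Spry4, Spred1, Etv4 and Etv5, chosen by name as the gene of the kinase ERK1 and 8 feedback and output genes of Ras-ERK signaling. All 9 were found among the 55487 genes of the count table, each as 1 row, and all 9 were among the 17414 genes that passed the filter on low counts. Frontal cortical RNA was sequenced from 18 mice aged 9 to 10 months, and each of 3 genotypes had 3 females and 3 males. APP/PS1 mice carry the APP/PS1 transgenes, a model of amyloid deposition, with homozygous floxed alleles of the farnesyltransferase (FT) β-subunit and no Cre. APP/PS1/FTnKO mice carry the same alleles plus Cre recombinase driven by the CamKIIα promoter, so that the gene is removed only in forebrain neurons and other cells of the cortex keep it. WT mice carry the floxed FT alleles with neither transgene nor Cre, although the series' design text names them C57BL/6J without the floxed alleles. No mice with FT deletion alone were analysed here. In this bulk tissue, fewer cells of a type and less RNA per cell cannot be told apart.

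Ras proteins carry a lipid that brings them to the membrane, where active receptors switch them on. H-Ras takes only a farnesyl lipid, whereas N-Ras and K-Ras can take a geranylgeranyl lipid when FT is inhibited. Active Ras then drives the kinases Raf, MEK and ERK. ERK phosphorylates transcription factors and raises the transcription of genes that in turn dampen the pathway, among them phosphatases that inactivate ERK and Sprouty and Spred proteins that block the signal upstream. In cortical neurons the pathway is engaged by growth factors and synaptic activity, and the mRNA of its feedback genes is widely used as a readout of its output. The mRNA levels below say nothing directly about the phosphorylation of ERK, which was not part of these data.

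Total counts per mouse ranged from 15925432 to 21030935 and did not set the genotypes apart. The WT female 19622 stood apart from the other 17 mice. The summed level of 7 cerebellar markers was 2891 CPM (counts scaled to the total of each library) in this mouse and 27.0 to 59.8 CPM in the others, and the summed level of 6 excitatory neuron markers was 512 CPM against 3145 to 6298 CPM. Gabra6, a granule cell receptor subunit, stood at 392 CPM in mouse 19622 and at no more than 0.186 CPM elsewhere. For this reason mouse 19622 was kept out of the main fit, which used 5 WT mice and 6 mice of each other genotype, 17 in all, and its values are given separately. The RNA integrity number (RIN) of the APP/PS1 mice spanned 7.7 to 8.7 and that of the APP/PS1/FTnKO mice 7.6 to 8.7, while all WT mice had a RIN of at least 8.5.

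Fntb, the gene of the deleted FT β-subunit, was examined first. Its normalized level was 14.1, 16.8, 16.9, 30.8 and 32.2 CPM in the 5 WT mice, had a median of 15.8 CPM (14.2 to 32.1) in APP/PS1, and had a median of 12.5 CPM (7.84 to 14.7) in APP/PS1/FTnKO mice. In all, 5 of the 6 knockout mice lay below every WT and every APP/PS1 mouse, and knockout mouse 16974 lay within both ranges. The log2 difference was -0.93 against WT and -0.77 against APP/PS1 (exact two-sided permutation test, p = 0.00433 and 0.0108). Over all genes neither difference passed the threshold of 0.05 on the adjusted p of edgeR's quasi-likelihood test (0.0658 and 0.251). The difference from WT was called in 3 of 28 alternative settings: DESeq2 (adjusted p = 0.0419), no filter on low counts (0.0036) and a fit of only these genotypes (0.0482). Exons of Fntb overlap the gene Churc1 on the same strand in the annotation, so reads of the 2 genes may be shared.

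Across the 3 comparisons none of the 9 genes passed the test, in any direction. In APP/PS1/FTnKO versus WT, 0 of 9 genes had an adjusted p below 0.05, where 3.87% of all genes tested did. At an unadjusted p below 0.05 there were 5 of 9 (Dusp4, Dusp5, Dusp6, Spry2 and Spry4, all with a log2 fold change below 0), against 22.1% of all genes. A fold change below 0 was found for 7 of 9, against 48.7% of all genes, and the median log2 fold change of the 9 was -0.23, against 0.01 for all genes. DESeq2 called 1 of the 9 in this comparison, Spry2 with an adjusted p of 0.0472, where it called 8.41% of all genes. In APP/PS1/FTnKO versus APP/PS1, 0 of 9 were called against 0.327% of all genes, 1 of 9 (Spry2) had an unadjusted p below 0.05 against 11.5%, and 9 of 9 had a log2 fold change below 0 against 50.5%, with a median of -0.13. In APP/PS1 versus WT, 0 of 9 were called against 1.50% of all genes, 0 of 9 had an unadjusted p below 0.05 against 14.0%, and 7 of 9 had a log2 fold change below 0 against 50.6%, with a median of -0.11. DESeq2 called 0 of 9 in both of these comparisons, where it called 1.76% and 2.69% of all genes. The comparisons share mice and several of the 9 genes were correlated over mice, so these counts are not independent of each other. The groups overlapped for all 9 genes in all 3 comparisons, as the plot of levels by mouse shows. The share of all genes tested with such an overlap was not computed, so this is a description only.

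**Figure D1:**
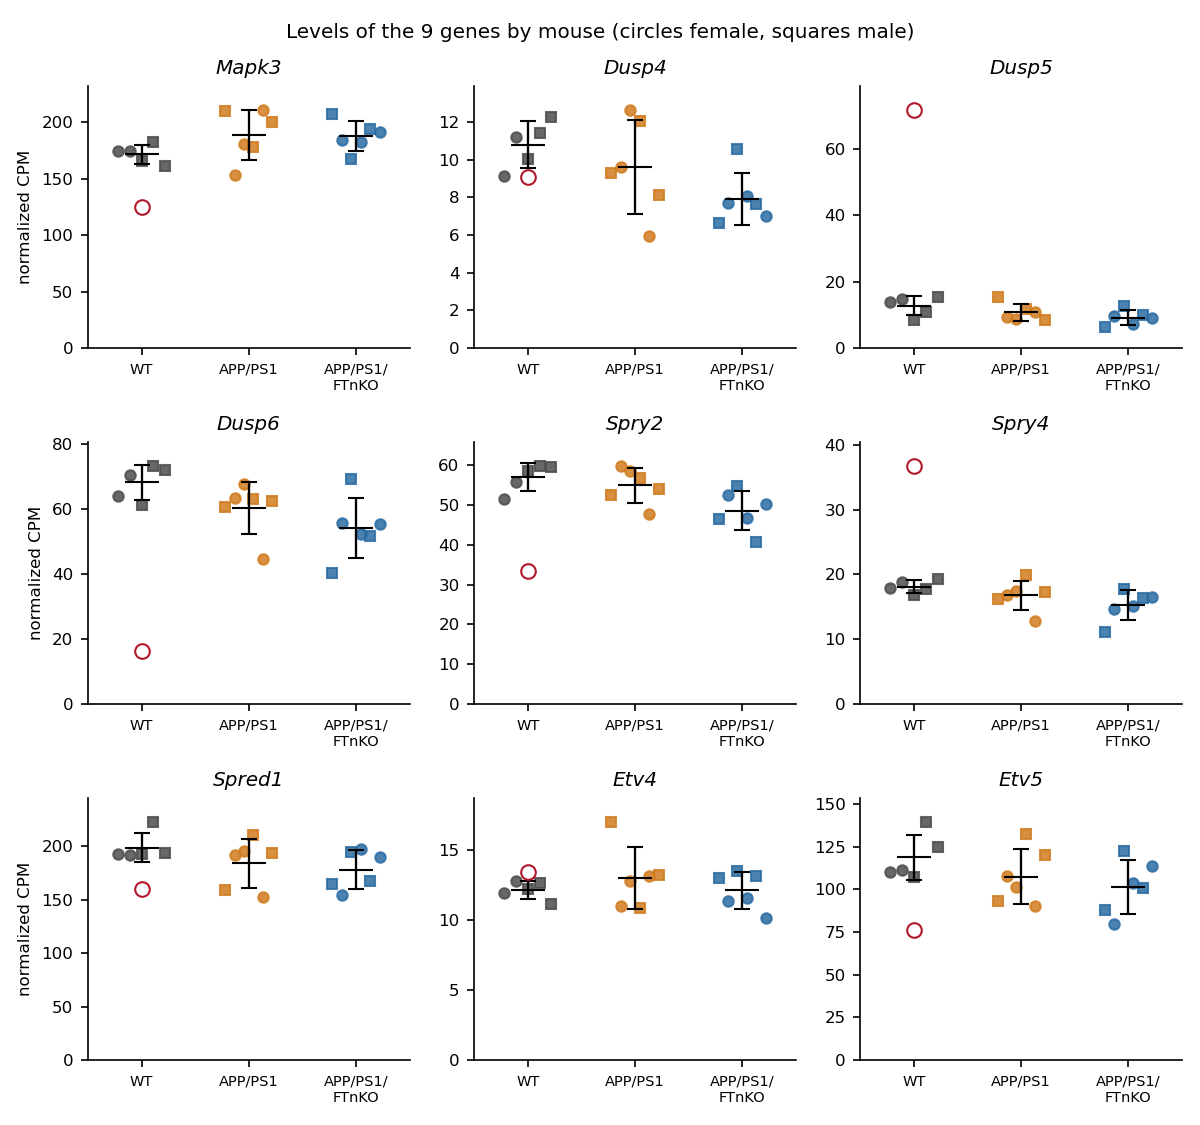
Normalized CPM of the 9 genes (vertical axis, from 0) in each mouse of the 3 genotypes, with circles for females, squares for males and bars for the mean ± SD of the mice in the main fit. The red open circle is WT mouse 19622, which is not in the bars and lies far from the rest for Dusp5, Dusp6, Spry2 and Spry4.

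Mapk3 encodes ERK1 and is the only kinase among the 9 genes. It lies at chr7:126759601-126765819 on the plus strand (GRCm38). Its level was 161, 166, 175, 175 and 182 CPM in WT mice, had a median of 191 CPM (153 to 211) in APP/PS1, and had a median of 188 CPM (167 to 207) in APP/PS1/FTnKO mice. In all, 5 of the 6 knockout mice and 3 of the 6 APP/PS1 mice were above every WT mouse. The log2 fold change was 0.14 (SE 0.074, adjusted p = 0.403) in APP/PS1 versus WT and 0.13 (SE 0.074, adjusted p = 0.302) in APP/PS1/FTnKO versus WT by edgeR, and it was -0.01 between the transgenic groups, with a 95% interval of -0.16 to 0.14.

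Per kilobase of exon, Mapk3 was the most abundant of the 9 genes in WT mice and the feedback genes spanned a wide range. Its level was 76.1 ± 3.67 RPKM, which is CPM divided by the exon length in kilobases (SD, n = 5). Spred1 (29.3 ± 1.99), Etv5 (29.0 ± 3.26) and Spry2 (27.3 ± 1.66) followed, with ranges that overlapped from each gene to the next. Dusp6 (21.8 ± 1.72) lay below all 3 in every WT mouse. Dusp5 (5.12 ± 1.16), Dusp4 (3.94 ± 0.448), Etv4 (3.91 ± 0.207) and Spry4 (3.81 ± 0.197) were the lowest and did not differ from each other beyond their spread.

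The 3 phosphatase genes encode proteins that remove the activating phosphates from MAP kinases: Dusp6 acts on ERK in the cytoplasm, whereas Dusp4 and Dusp5 act in the nucleus. Dusp6 stood at 61.2, 64.1, 70.7, 72.3 and 73.4 CPM in WT mice, with a median of 63.0 CPM (44.8 to 67.8) in APP/PS1 and of 54.0 CPM (40.3 to 69.3) in APP/PS1/FTnKO mice. Of the 6 knockout mice, 5 lay below every WT mouse, and mouse 18973, at 69.3 CPM, lay within the WT range. The log2 fold change in APP/PS1/FTnKO versus WT was -0.33 (SE 0.113, 95% interval -0.57 to -0.09, edgeR adjusted p = 0.100), and against APP/PS1 it was -0.16 (SE 0.108, adjusted p = 0.627).

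Dusp4 stood at 9.11, 10.1, 11.2, 11.4 and 12.2 CPM in WT mice, with a median of 9.47 CPM (5.93 to 12.7) in APP/PS1 and of 7.67 CPM (6.64 to 10.6) in APP/PS1/FTnKO mice. Again 5 of 6 knockout mice were below every WT mouse and mouse 18973 was the exception, while the APP/PS1 mice spanned both groups. The log2 fold change in APP/PS1/FTnKO versus WT was -0.44 (SE 0.161, 95% interval -0.78 to -0.10, edgeR adjusted p = 0.127), and against APP/PS1 it was -0.28 (SE 0.155, adjusted p = 0.527).

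Dusp5 had the widest spread between mice of the 9 genes, with a biological coefficient of variation of 21.4%, against 8.86% for Mapk3 and for Spry2. It stood at 8.53, 10.8, 13.96, 14.7 and 15.2 CPM in WT mice, with a median of 10.1 CPM (8.58 to 15.4) in APP/PS1 and of 9.25 CPM (6.34 to 12.5) in APP/PS1/FTnKO mice. A group of 3 WT mice was above every knockout mouse, and the lowest WT mouse, 19101, was below 4 of the 6. The log2 fold change in APP/PS1/FTnKO versus WT was -0.48 (SE 0.188, 95% interval -0.87 to -0.08, edgeR adjusted p = 0.149), the largest of the 9 genes in that comparison. Exons of Dusp5 overlap an antisense gene, AC137853.2, which had 0 to 5 counts in every mouse; whether reads were counted by strand is not stated.

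The start regions of Dusp5 and Dusp6 are shown because both genes are standard readouts of ERK and yet hold different letters there. The sequences are those of RefSeq (GRCm38.p6), in windows of 250 bases before to 50 after a start site. Windows were matched for 5 of the 9 genes (Dusp5, Dusp6, Spry2, Spred1 and Etv5, the last with 2 windows). In these windows 4 motifs were searched on both strands: the ETS letters CCGGAA, the cAMP response element core TGACGT, the AP-1 letters TGACTCA, and the CArG box bound by serum response factor. They occurred in 14.9%, 7.51%, 5.20% and 1.63% of the 32851 windows of all genes. The Dusp5 stretch covers chr19:53528895-53529104 on the plus strand, and the Dusp6 stretch covers chr10:99262981-99263230 on the plus strand; capitals mark the motifs found.
Dusp5: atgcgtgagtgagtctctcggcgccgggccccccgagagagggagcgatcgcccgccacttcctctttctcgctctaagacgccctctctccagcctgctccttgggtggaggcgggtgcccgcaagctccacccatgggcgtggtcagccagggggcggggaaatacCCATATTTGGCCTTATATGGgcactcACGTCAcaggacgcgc
Dusp6: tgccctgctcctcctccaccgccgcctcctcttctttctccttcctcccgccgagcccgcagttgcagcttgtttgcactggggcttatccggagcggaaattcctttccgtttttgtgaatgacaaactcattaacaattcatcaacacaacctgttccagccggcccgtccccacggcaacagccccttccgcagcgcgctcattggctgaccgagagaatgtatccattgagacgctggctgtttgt
Dusp5 held 2 adjoining CArG boxes, starting at bases 169 and 179 of the window, and 1 cAMP element core at base 195, none of which overlap. The Dusp6, Spred1 and both Etv5 windows held none of the 4 motifs. Spry2 held the ETS letters once, just after its start, at chr14:105896770-105896798 on the minus strand, and the neighboring bases are shown with the match in capitals.
Spry2: aggtcatctatcCCGGAAtccgggagggt
These are matches of letters in a short window and say nothing about binding in these mice.

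Spry2 and Spry4 encode Sprouty proteins, which hold back signaling from receptor tyrosine kinases to Ras and ERK. Spry2 stood at 51.4, 55.8, 58.5, 59.4 and 59.7 CPM in WT mice, with a median of 55.4 CPM (47.8 to 59.8) in APP/PS1 and of 48.6 CPM (40.8 to 54.7) in APP/PS1/FTnKO mice. In all, 4 WT mice and 3 APP/PS1 mice lay above every knockout mouse. The log2 fold change was -0.23 in APP/PS1/FTnKO versus WT (SE 0.075, 95% interval -0.39 to -0.07, edgeR adjusted p = 0.0887) and -0.18 in APP/PS1/FTnKO versus APP/PS1 (SE 0.071, 95% interval -0.33 to -0.03, adjusted p = 0.342). APP/PS1 and WT mice differed by -0.05, with a 95% interval of -0.21 to 0.10.

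Spry4 stood at 16.9, 17.8, 17.9, 18.9 and 19.2 CPM in WT mice, with a median of 17.05 CPM (12.9 to 19.9) in APP/PS1 and of 15.8 CPM (11.1 to 17.7) in APP/PS1/FTnKO mice. The WT mice were closely spaced, and 5 of 6 knockout mice were below all of them. The log2 fold change in APP/PS1/FTnKO versus WT was -0.24 (SE 0.109, edgeR adjusted p = 0.202), and against APP/PS1 it was -0.13 (SE 0.104, adjusted p = 0.685). Spred1, whose protein brings neurofibromin to the membrane to switch Ras off, stood at 192, 192, 193, 194 and 223 CPM in WT mice, with a median of 193 CPM (152 to 211) in APP/PS1 and of 179 CPM (155 to 198) in APP/PS1/FTnKO mice. Its log2 fold changes lay between -0.15 and -0.04 in the 3 comparisons, none with an adjusted p under 0.304.

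Etv4 and Etv5 encode closely related transcription factors of the ETS family. Etv5 stood at 108, 110, 112, 125 and 140 CPM in WT mice, with a median of 105 CPM (90.4 to 132) in APP/PS1 and of 102 CPM (79.7 to 122) in APP/PS1/FTnKO mice. Its log2 fold change in APP/PS1/FTnKO versus WT was -0.21 (SE 0.107, 95% interval -0.44 to 0.01, edgeR adjusted p = 0.255). Etv4 stood at 11.2, 11.9, 12.2, 12.6 and 12.8 CPM in WT mice, with a median of 13.0 CPM (10.9 to 17.01) in APP/PS1 and of 12.3 CPM (10.1 to 13.5) in APP/PS1/FTnKO mice. The 3 genotypes overlapped almost completely for Etv4, and its log2 fold change in APP/PS1/FTnKO versus WT was 0.00, with a 95% interval of -0.21 to 0.22.

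**Figure D2:**
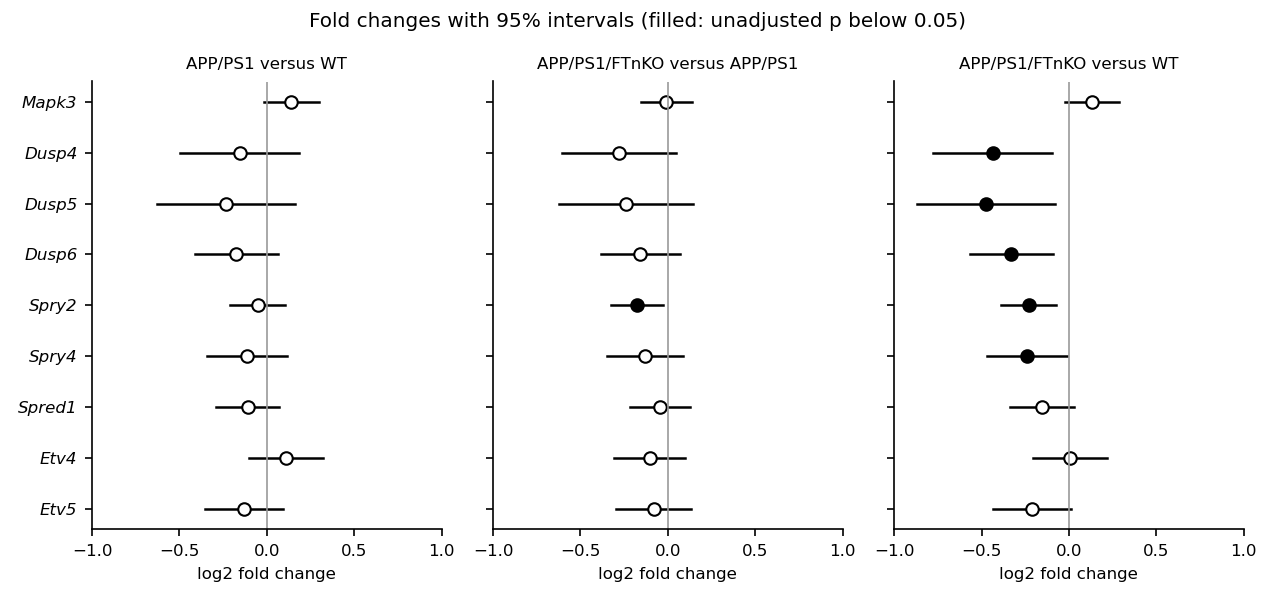
Log2 fold change (horizontal axis) of the 9 genes with its 95% interval in the 3 comparisons, from the edgeR fit of 17 mice. Filled points have an unadjusted p below 0.05; in APP/PS1/FTnKO versus WT these are Dusp4, Dusp5, Dusp6, Spry2 and Spry4, and no point passed the adjusted threshold.

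Of the fits that left out 1 mouse, only 1 changed the calls on these genes. Without knockout mouse 18973, which had the highest Dusp4, Dusp5, Dusp6, Spry2, Spry4, Etv4 and Etv5 of its group, 2 of 9 genes were called in APP/PS1/FTnKO versus WT: Dusp6 at a log2 fold change of -0.42 (edgeR adjusted p = 0.0311) and Spry2 at -0.27 (adjusted p = 0.0454). In that fit 5.69% of all genes were called. Without any other single mouse 0 of 9 were called in any comparison. Knockout mouse 16974, which had the lowest Dusp4, Dusp5, Dusp6 and Spry4 of its group, also had the lowest RIN, 7.6; without it the log2 fold change in APP/PS1/FTnKO versus WT was -0.25 for Dusp6 and -0.15 for Spry4, and that versus APP/PS1 was -0.08 for Dusp6 and -0.05 for Spry4. Without APP/PS1 mouse 19554 that of Dusp4 versus APP/PS1 was -0.16. With WT mouse 19622 in the fit, the log2 fold change in APP/PS1/FTnKO versus WT of Dusp5 went to -1.21 and Spry4 to -0.47, whereas Dusp6 shrank to -0.12 and Spry2 to -0.12. Mouse 19622 had 71.7 CPM of Dusp5 and 36.8 CPM of Spry4, above every other mouse, and 16.3 CPM of Dusp6, 33.4 CPM of Spry2, 76.5 CPM of Etv5 and 125 CPM of Mapk3, below every other mouse.

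Sex did not separate these genes. The male minus female log2 difference lay between 0.00 (Spry2) and 0.14 (Etv5), with edgeR adjusted p of at least 0.817. No member and no gene at all was called for a sex by genotype interaction in any of the 3 comparisons by edgeR; none of the 9 genes had an unadjusted p below 0.05, and the smallest, 0.120, was that of Dusp5 in APP/PS1 versus WT.

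The relation to RIN was called for 1 of the 9 genes. With RIN as a covariate, Etv5 changed by 0.39 log2 units per unit of RIN (SE 0.102, edgeR adjusted p = 0.0285) and Spry4 by 0.36 (SE 0.118, adjusted p = 0.0682), so that 1 of 9 was called where 8.40% of all genes were, a share close to that background. With that covariate the log2 fold change in APP/PS1/FTnKO versus WT was -0.22 for Spry2 (adjusted p = 0.153), -0.28 for Dusp6 (adjusted p = 0.208), -0.41 for Dusp4 (adjusted p = 0.221), -0.43 for Dusp5 (adjusted p = 0.266) and -0.16 for Spry4 (adjusted p = 0.402). In APP/PS1/FTnKO versus APP/PS1 the covariate gave -0.18, -0.21, -0.31, -0.29 and -0.21 for the same genes in that order. Without the covariate these were -0.18, -0.16, -0.28, -0.24 and -0.13. Etv4 moved the other way, from -0.10 to -0.05. No member was called in any comparison with the covariate.

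Within genotype, 6 of the 9 genes (Dusp4, Dusp6, Spry2, Spry4, Spred1 and Etv5) were positively correlated in every pair, with r from 0.38 to 0.89. After adjustment only 11 of these 15 pairs passed on r and 6 on rho. Mapk3, Dusp5 and Etv4 were not part of this block. The block was picked from these same r values, so its positive signs carry no test. How many pairs among all genes would pass was not computed. After the effects of genotype and sex were taken out of log2 CPM, 36 pairs were correlated over 17 mice, with p from 100000 permutations. The permutations made no allowance for the genotype and sex terms already fitted. Their p are therefore somewhat too small, and pairs near the threshold are uncertain. The most correlated pair was Spred1 and Etv5, with r = 0.89 (adjusted p = 0.00072) and rho = 0.87 (adjusted p = 0.00072). Its r stayed at 0.89 without the 2 mice farthest from the median of Spred1. Dusp4 and Dusp6 followed each other with r = 0.82 (adjusted p = 0.00168) and rho = 0.79 (adjusted p = 0.00324). Their r was 0.74 without the 2 mice farthest from the median of Dusp4. Dusp6 and Spry4 had r = 0.87 (adjusted p = 0.00162), but rho was 0.53 (adjusted p = 0.098). Their r fell to 0.59 without the 2 mice farthest from the median of Dusp6, so the closeness of this pair rested in part on those mice.

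Mapk3 had a negative r with each of those 6 genes, from -0.67 to -0.43, an r of -0.05 with Dusp5 and a positive r of 0.52 with Etv4 (adjusted p = 0.0648). It had r = -0.67 (adjusted p = 0.0162) and rho = -0.71 (adjusted p = 0.0186) with Dusp4, and r = -0.67 (adjusted p = 0.0161) and rho = -0.63 (adjusted p = 0.0359) with Spry2. Without the 2 mice farthest from the median of Mapk3 these r were -0.72 and -0.55. Dusp5 passed the threshold with none of the other 8 genes, its largest r being 0.44 with Spry4 (adjusted p = 0.119). Etv4 also passed with none, although its r with Etv5 was -0.52 (adjusted p = 0.0632). All 9 values of a mouse come from 1 library and share its depth and cell makeup, whose part in these correlations was not tested.

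**Figure D3:**
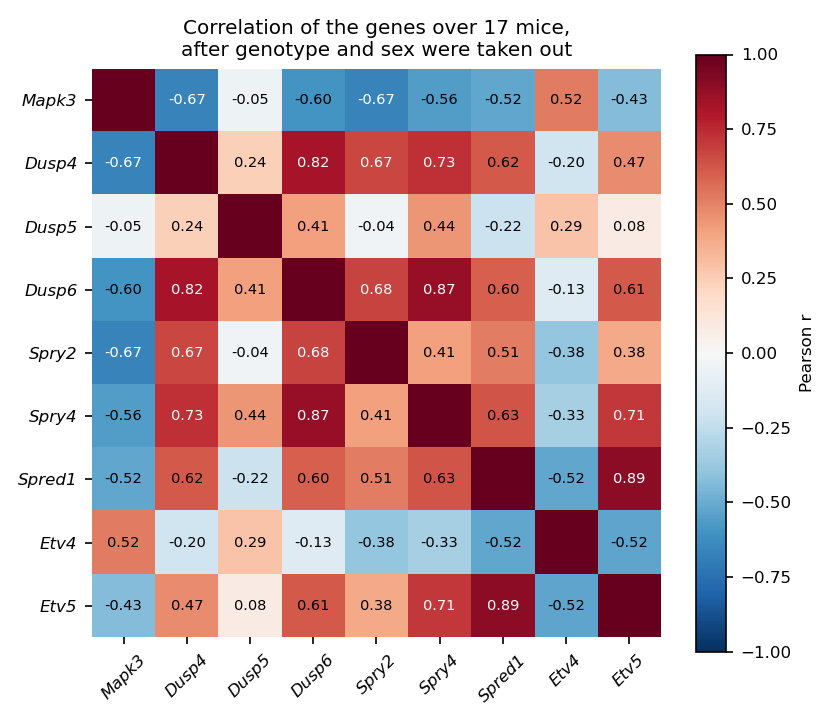
Pearson r between each pair of the 9 genes (both axes) over 17 mice, on log2 CPM after genotype and sex were taken out, from blue at -1 to red at 1. Dusp4, Dusp6, Spry2, Spry4, Spred1 and Etv5 form a red block, with Mapk3 and Etv4 blue against it and Dusp5 between -0.22 and 0.44 with the other genes.

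As a description, the mean of the standardized levels of the 8 genes other than Mapk3 was taken in each mouse. It lay between 0.137 and 0.952 in WT mice. In APP/PS1 mice it ranged from -1.07 (mouse 19723) to 0.670, and in APP/PS1/FTnKO mice from -1.45 (mouse 16974) to 0.641 (mouse 18973). Of the 6 knockout mice, 5 were below every WT mouse, and 1 APP/PS1 mouse, 19723, was below all but 1 knockout mouse.

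**Figure D4:**
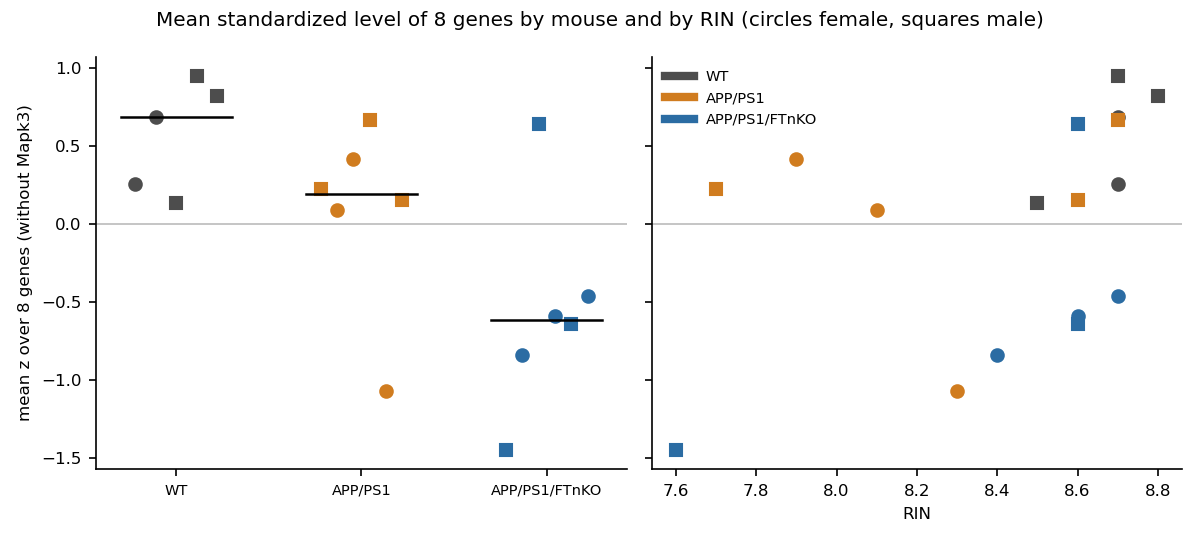
Mean standardized level (z) of 8 genes without Mapk3 in each of 17 mice (vertical axis) by genotype (left, line at the median) and by RIN (right). Mice with a RIN near 8.6 lie both well above and well below 0, and the lowest mouse has the lowest RIN, 7.6.

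Within genotype and sex, the genes whose pattern over 17 mice was most like the mean of all 9 were, of 17405 other genes, Egr1 (r = 0.93), Susd6 (r = 0.88), Egr3 (r = 0.87), Parp1 (r = 0.85) and Blzf1 (r = 0.85). They were ranked by r, so these values carry no test. Egr1 and Egr3 encode zinc finger factors of the immediate early response. Egr1 itself was 254 ± 51.5 CPM in APP/PS1/FTnKO (SD, n = 6) and 397 ± 65.1 CPM in WT mice (n = 5), a log2 fold change of -0.64 that passed the test (edgeR adjusted p = 0.0208). Of 9 immediate early genes, 3 (Egr1, Egr2 and Arc) were called lower by edgeR in APP/PS1/FTnKO versus WT, where 3.87% of all genes were called, 0 were called higher, and the median log2 fold change was -0.53. DESeq2 called 5, against 8.41% of all genes. In the other comparisons 0 of 9 were called by edgeR or DESeq2; at an unadjusted p below 0.05 by edgeR there were 1 (APP/PS1 versus WT, against 14.0% of all genes) and 4 (APP/PS1/FTnKO versus APP/PS1, against 11.5%), all lower. The call of Egr1 was lost with mouse 19622 in the fit, at -0.41 (adjusted p = 0.495), and with only mice at or above a RIN of 8, at -0.55 (adjusted p = 0.0532). It was also lost without mouse 16974, 18944, 19053, 19718 or 19721 (log2 fold change -0.62 to -0.56, adjusted p = 0.0514 to 0.0694). With mouse 19622 the calls of Egr2 and Arc were lost as well (log2 fold change -0.76 and -0.69, adjusted p = 0.422 and 0.363). The call of Arc was also lost without mouse 18944, 19053, 19718 or 19721 (log2 fold change -0.94 to -0.91, against -0.95 with all 17 mice; adjusted p = 0.0503 to 0.0681), and that of Egr2 without mouse 18944 or 19053 (adjusted p = 0.0510 to 0.0637).

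The mean of the 9 genes was also set against RIN, library size and 14 marker lists over the same 17 mice, 16 relations in all, after genotype and sex were taken out. The r was negative for the astrocyte (r = -0.63, rho = -0.60), oligodendrocyte precursor (r = -0.62, rho = -0.56), homeostatic microglia (r = -0.55, rho = -0.50), endothelial (r = -0.55, rho = -0.56), reactive astrocyte (r = -0.49, rho = -0.41) and plaque-associated microglia markers (r = -0.48, rho = -0.33). It was positive for the immediate early genes (r = 0.55, rho = 0.34), RIN (r = 0.42, rho = 0.29), excitatory neuron markers (r = 0.41, rho = 0.27) and library size (r = 0.39, rho = 0.45). For the other 6 lists r lay between -0.29 and 0.32. The 2 mice farthest from the median of the mean of the 9 genes were then left out. Without them r was -0.51 for astrocytes, -0.42 for precursors, -0.52 for homeostatic microglia, -0.39 for endothelium, 0.45 for the immediate early genes and 0.19 for RIN. None of the 16 relations passed a threshold of 0.05 after adjustment, and they are given as descriptions of the same libraries.

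Of the excitatory neuron markers, 2 were called lower in APP/PS1/FTnKO versus WT. Their summed level had a median of 4782 CPM (4452 to 6298) in WT, 4981 CPM (3849 to 6062) in APP/PS1 and 3601 CPM (3145 to 4974) in APP/PS1/FTnKO mice. Of the 6 markers none was at 0 in any group, all 6 had a log2 fold change below 0 in APP/PS1/FTnKO versus WT, against 48.7% of all genes, and 2 were called, against 3.87%: Slc17a7 (-0.46, edgeR adjusted p = 0.0396) and Nrn1 (-0.53, adjusted p = 0.0132). Against APP/PS1 mice, 4 were below 0 and 2 above, 0 were called by edgeR (3 had an unadjusted p below 0.05, against 11.5% of all genes) and DESeq2 called 2, against 1.76%. With RIN as a covariate edgeR called 1 in that comparison, Slc17a7 (adjusted p = 0.0155), against 1.5% of all genes. The call of Slc17a7 was lost with all 18 mice (log2 fold change -0.26, adjusted p = 0.557) and with RIN as a covariate (-0.36, 0.0602). It was also lost with only mice at or above a RIN of 8 (-0.37, 0.0849) and without the sex term (-0.48, 0.0508). When any of 8 mice was left out it was lost at -0.48 to -0.37 (0.0513 to 0.118). The call of Nrn1 was lost with all 18 mice (-0.47, 0.0546) and without mouse 19053 (-0.50, 0.0546). Their part in the levels of the 9 genes was not tested.

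The rest of the pathway was followed with 5 lists that hold none of the 9 genes. Of 13 ligand and receptor genes that activate Ras, 0 were called by edgeR in any comparison. At an unadjusted p below 0.05 there were 1 higher and 4 lower in APP/PS1 versus WT, against 14.0% of all genes in either direction, 2 higher and 3 lower in APP/PS1/FTnKO versus WT, against 22.1%, and 0 in APP/PS1/FTnKO versus APP/PS1, against 11.5%. DESeq2 called Fgfr2, a fibroblast growth factor receptor, in APP/PS1 versus WT (log2 fold change -0.30 and adjusted p = 0.0611 by edgeR, adjusted p = 0.0131 by DESeq2) and Erbb4 in APP/PS1/FTnKO versus WT (adjusted p = 0.0230 by DESeq2). The largest log2 fold change was -0.43 for Bdnf, the neuronal growth factor, in APP/PS1 versus WT (edgeR adjusted p = 0.218) and -0.33 for Erbb4, a neuregulin receptor, in APP/PS1/FTnKO versus WT (adjusted p = 0.0640). Of 19 genes of the cascade below the receptors, 0 were called by edgeR in any comparison. The list pools genes that drive the cascade with genes that restrain it, among them Nf1 and Rasa1. Both had a log2 fold change below 0 in APP/PS1/FTnKO versus WT (-0.13 and -0.21). The counts therefore give no direction for the signal. In APP/PS1/FTnKO versus WT, 15 of 19 had a log2 fold change below 0, against 48.7% of all genes, and 7 of 19 had an unadjusted p below 0.05 with a value below 0, against 10.9% of all genes; 2 were below that p in each other comparison, against 14.0% of all genes in APP/PS1 versus WT and 11.5% in APP/PS1/FTnKO versus APP/PS1. DESeq2 called 2 of them in APP/PS1/FTnKO versus WT, Ksr1 and Map2k1 (adjusted p = 0.0434 and 0.0275), against 8.41% of all genes, and 0 in the other comparisons. The median log2 fold change of the 19 in APP/PS1/FTnKO versus WT was -0.105, and the largest was -0.30 for the scaffold gene Ksr2 (adjusted p = 0.125). Ksr2 was also the largest in APP/PS1 versus WT, at -0.23 (adjusted p = 0.358), and Map2k1, which encodes the kinase MEK1, was the largest in APP/PS1/FTnKO versus APP/PS1, at -0.14 (adjusted p = 0.358).

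Of 10 kinases and ETS factors that ERK phosphorylates, 1 was called by edgeR, in APP/PS1/FTnKO versus WT, where 3.87% of all genes were: Mknk2, a kinase of the translation factor eIF4E. It stood at 51.4 ± 3.97 CPM in WT (SD, n = 5), 51.5 ± 2.0 CPM in APP/PS1 (n = 6) and 42.7 ± 3.23 CPM in APP/PS1/FTnKO mice (n = 6). It fell by 0.27 on the log2 scale in APP/PS1/FTnKO versus WT (edgeR adjusted p = 0.0232), and its difference from APP/PS1 was -0.27 with an adjusted p of 0.0543. DESeq2 called both differences (adjusted p = 0.00194 and 0.00241). With RIN as a covariate the adjusted p were 0.0503 and 0.0152, and the log2 fold change against WT was -0.23. The call against WT was also lost with only mice at or above a RIN of 8 (log2 fold change -0.23, adjusted p = 0.0641). Without mouse 16974, 19053, 19394, 19718 or 19721 it was lost at -0.26 to -0.22 (adjusted p = 0.0511 to 0.0767). Elk3 had the largest value in APP/PS1 versus WT, 0.24 (adjusted p = 0.507).

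Of 12 other feedback genes and MAPK phosphatases, edgeR called 2 lower in APP/PS1/FTnKO versus WT, against 3.87% of all genes called, and 0 higher, and it called 0 in the other comparisons, where 1 (APP/PS1 versus WT, against 14.0% of all genes) and 3 (APP/PS1/FTnKO versus APP/PS1, against 11.5%) had an unadjusted p below 0.05. DESeq2 also called Dusp8 in APP/PS1 versus WT (log2 fold change -0.19 and adjusted p = 0.0584 by edgeR, 0.0112 by DESeq2) and Dusp7 in APP/PS1/FTnKO versus APP/PS1 (-0.38 and adjusted p = 0.0801 by edgeR, 0.00790 by DESeq2). The latter was called with RIN as a covariate too (adjusted p = 0.0343), and not with all 18 mice in the fit (adjusted p = 0.740). Dusp8, a phosphatase that acts mainly on the stress kinases JNK and p38, stood at 169 ± 4.99 CPM in WT (SD, n = 5) and 136 ± 8.39 CPM in APP/PS1/FTnKO mice (n = 6). It fell by 0.32 on the log2 scale (SE 0.048, edgeR adjusted p = 0.00187) and was called under all 28 alternative settings, the lowest and highest adjusted p being 1.03e-07 and 0.0141. Dusp7, an ERK phosphatase of the cytoplasm, stood at 66.1 ± 7.38 CPM in WT and 47.6 ± 7.38 CPM in APP/PS1/FTnKO mice. It fell by 0.46 on the log2 scale (SE 0.094, adjusted p = 0.0127), and of the same 28 settings it was not called in 1, the fit with mouse 19622 (adjusted p = 0.355). Dusp2, a weakly expressed phosphatase gene, had the largest value in both other comparisons, -0.50 and 0.62, with adjusted p of 0.539 and 0.501 and means under 1 CPM.

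Of 8 other output genes, 7 passed the filter on low counts and 1 was called by edgeR, in APP/PS1/FTnKO versus WT, where 3.87% of all genes were: Etv1, a further factor of the Etv4 and Etv5 family. It stood at 68.2 ± 4.16 CPM in WT (SD, n = 5) and 57.5 ± 4.44 CPM in APP/PS1/FTnKO mice (n = 6). It fell by 0.25 on the log2 scale, with an edgeR adjusted p of 0.0499. The call was lost in 17 of 28 alternative settings, 12 of them fits without 1 mouse (log2 fold change -0.27 to -0.21, adjusted p = 0.0505 to 0.138). With mouse 19622 in the fit it was lost at -0.83 (adjusted p = 0.160), and in the remaining settings at -0.25 to -0.20. Ccnd1, which encodes cyclin D1, was the largest in APP/PS1 versus WT at 0.42 (adjusted p = 0.0842, and 0.0215 by DESeq2, which called it) and in APP/PS1/FTnKO versus APP/PS1 at -0.34 (adjusted p = 0.213). Myc was the largest in APP/PS1/FTnKO versus WT, at 0.43 (adjusted p = 0.0863). Phlda1 had a log2 fold change of -0.33 in APP/PS1/FTnKO versus WT (edgeR adjusted p = 0.0669), which DESeq2 called (0.0279), and of -0.28 in APP/PS1/FTnKO versus APP/PS1 (edgeR adjusted p = 0.251), which was called with RIN as a covariate (0.0294).

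**Figure D5:**
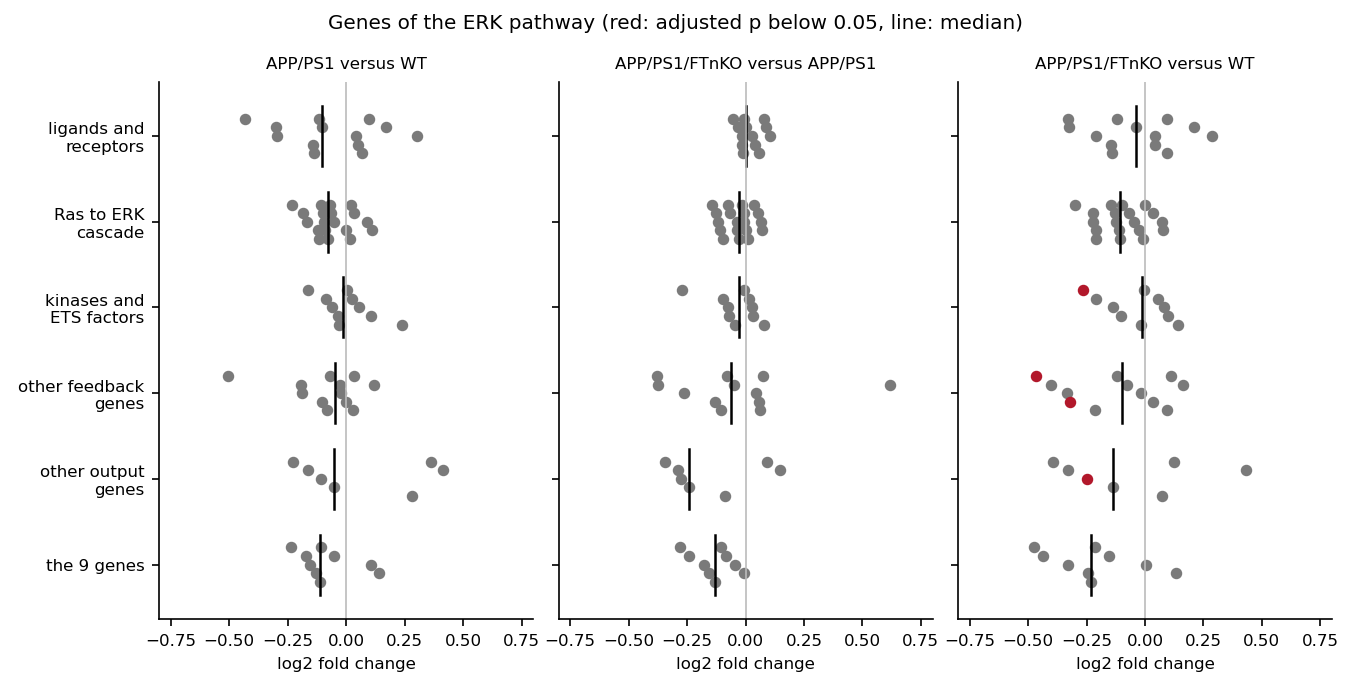
Log2 fold change (horizontal axis) of every tested gene of 5 pathway lists and of the 9 genes, in the 3 comparisons, with a line at each list's median and red points for an edgeR adjusted p below 0.05. The red points, all in APP/PS1/FTnKO versus WT and all below 0, are Mknk2, Dusp7, Dusp8 and Etv1, and none belongs to the 9 genes.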

How the data were processed

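Frontal cortical mRNA of 18 mice was prepared as stranded libraries. Per the submitters' processing notes and the study's methods, the authors trimmed reads with Trimmomatic 0.33, aligned them with HISAT2 2.1.0 to GRCm38 (the notes list mm10 and mm9) and counted them with featureCounts, with no version, annotation or strand setting stated. All 18 columns of the deposited table hold raw counts for Ensembl genes, and all were used. The 9 genes and all lists were chosen with earlier results of these data known.

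Counts were fitted in R 4.3.3 with edgeR 4.0.16 (TMM scaling; filterByExpr at 10 counts; sex plus genotype as terms of a quasi-likelihood model; 3 genotypes in a single fit; Benjamini-Hochberg adjustment over 17414 genes; threshold 0.05). WT mouse 19622 was left out of this fit, as the study left out 1 WT mouse, and its CPM come from a scaling of all 18 mice, which moved no member in another mouse by more than 0.833%. CPM follow the TMM-scaled totals of counts in genes, and levels per kilobase use the exon length of GENCODE vM21 (GRCm38), which matched 99.4% of gene IDs. Log2 CPM used a prior count of 2. Alternatives were DESeq2 1.42.0 (on the same filtered genes), limma-voom (limma 3.58.1), RLE scaling, no filter, a minimum count of 50, a robust spread, no sex term, RIN as a covariate, a fit of only the genotypes compared, a fit of the mice at or above a RIN of 8, a fit of all 18 mice, and leaving out each of 17 mice. Depth was 15925432 to 21030935 counts per mouse. Named genes were all 9 members, Fntb, the called genes and the gene with the largest change of each pathway list, and the 5 genes most like the mean of the members; 2 further genes fixed for the lists or this rule are not reported here and were left out of the list counts. Marker genes, immediate early genes and pathway genes called by DESeq2 alone were named outside this rule after their values were seen, and the alternatives for genes other than the members were added after seeing the data. Mice are separate animals.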

Additional observations from a re-analysis of the deposited data

Results flagged for a closer look

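The highest or lowest mouse for each gene in each genotype was compared with the rest by Dixon's gap ratio, in 27 groups of 6 mice and again in the 9 WT groups without mouse 19622, which are not separate from the first. In all, 7 values from 4 mice stood apart, and chance gives about 1 in 20 separate groups. WT mouse 19622 accounted for 4 of them: Dusp5 at 71.7 CPM and Spry4 at 36.8 CPM were far above the other WT mice, and Dusp6 at 16.3 CPM and Spry2 at 33.4 CPM were far below. This mouse is the library with cerebellar markers. Knockout mouse 18973 was high for Dusp4, at 10.5 CPM, and is the mouse whose removal brought 2 calls. APP/PS1 mouse 19723 was low for Dusp6, at 44.8 CPM. WT mouse 19718 was high for Spred1, at 223 CPM, among the 5 WT mice without mouse 19622. No difference between the sexes in the effect of genotype was found for these genes.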

How the results depend on the processing

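The number of the 9 genes called stayed at 0 in APP/PS1 versus WT and in APP/PS1/FTnKO versus APP/PS1 under every alternative run, and it was 0 for the sex by genotype interaction. In APP/PS1/FTnKO versus WT it was 1 with DESeq2 (Spry2) and 1 without a filter (Dusp6, adjusted p = 0.0389), and 0 to 2 when 1 mouse was left out, 2 without knockout mouse 18973. Of 297 member fold changes under the other settings 284 kept their direction and side of the threshold, 2 passed it and 11 changed sign; of 459 with 1 mouse left out these were 448, 2 and 9. With all 18 mice, APP/PS1 versus WT turned to 0.036 for Dusp6 and 0.061 for Spry2, and Etv4 in APP/PS1/FTnKO versus WT to -0.031. With RIN as a covariate, APP/PS1 versus WT turned to 0.055 for Spry4, 0.048 for Etv5 and -0.0083 for Etv4, Mapk3 in APP/PS1/FTnKO versus APP/PS1 to 0.0093, and Etv4 in APP/PS1/FTnKO versus WT to -0.058. Without the sex term the last was -0.0044; in mice with a RIN of at least 8 it was -0.012, and Etv4 in APP/PS1 versus WT was -0.0022. Leaving out 1 mouse took Mapk3 in APP/PS1/FTnKO versus APP/PS1 from -0.062 to 0.035, crossing 0 without 18973 (0.030), 16975 (0.022), 19744 (0.0065) or 19723 (0.035). It took Etv4 in APP/PS1/FTnKO versus WT from -0.038 to 0.053, crossing without 16974 (-0.0040), 18973 (-0.016), 19720 (-0.0077), 19101 (-0.0098) or 19721 (-0.038).

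The number of all genes called, the background of the shares above, moved more. In APP/PS1 versus WT it was 261, against 468 with DESeq2, 452 without a filter, 84 with RIN, 120 at a RIN of at least 8, and 124 (without 19053) to 465 (without 19744) with 1 mouse left out. In APP/PS1/FTnKO versus APP/PS1 it was 57, against 2 with all 18 mice, 253 with DESeq2, 104 without a filter, 261 with RIN, 14 at a RIN of at least 8, 5 with only these genotypes, and 10 (without 19554) to 81 (without 16975). In APP/PS1/FTnKO versus WT it was 674, against 261 with all 18 mice, 1321 with DESeq2, 388 with RIN, 368 at a RIN of at least 8, and 206 (without 19053) to 987 (without 18973). The cause was not tested.

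With 5 or 6 mice a group, differences of the size seen for these genes were close to the spread between mice, and a gene that missed the threshold is not shown to be unchanged. No paired analysis was possible because the labels used here do not give the litters of the mice, and replicate numbers follow accession order.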
